A study of Mus musculus with 12 samples.

Results

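The expression of 10 genes that encode fibronectin and the proteins of elastic fibres was examined in C2C12 myotubes, as 10 of the 55487 genes in the deposited count table. The members were taken by symbol: fibronectin (Fn1), elastin (Eln), the fibrillins (Fbn1 and Fbn2), the fibulins (Efemp2, Fbln1, Fbln2 and Fbln5) and the microfibril-associated glycoproteins (Mfap2 and Mfap5). C2C12 is a mouse myoblast line whose cells fuse into myotubes once serum is lowered, and a line grown in a dish holds none of the vessels or connective tissue cells of a muscle. The cells were first differentiated for 5 days with 2% horse serum. The medium was then changed for 24 h to one with 4% horse serum (control, 6 libraries) or one with 4% STEM (6 libraries), a cell-free mixture secreted by partially differentiated human embryonic stem cells. The STEM medium held no horse serum, so the effect of adding STEM and the effect of removing horse serum cannot be told apart. The labels do not say whether libraries of a group came from separate cultures, and p-values measure the spread between these libraries. Libraries are called by group and number, with 1 to 6 in the control group and 7 to 12 in the STEM group.

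Fibronectin is secreted as a dimer, bound by integrins at the cell surface and pulled into fibrils, and this network is a scaffold on which fibrillin microfibrils and other matrix are laid down. Fibrillin polymers form the microfibrils, and the microfibril-associated glycoproteins sit along them. Elastin monomers are brought to microfibrils by fibulins and crosslinked there by lysyl oxidases. In muscle these fibres run through the connective tissue between muscle fibres and the walls of vessels.

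Depth was between 13285472 and 24536264 counts per library. Horse serum 6 stood apart from the other libraries. It lay at -53.3 on principal component 2 of the log2 CPM (19.8% of the variance), where the other 11 libraries lay between 0.22 and 11.8. On principal component 1 (44.2% of the variance) it lay at 11.2, on the side of the STEM libraries (15.5 to 28.6). The other horse serum libraries lay between -35.5 and -24.6 there. The summed level of 13 myotube markers, among which Ttn and Acta1 were highest, was 13558 CPM (counts relative to the normalized library total) in horse serum 6, against 25216 to 27558 CPM in the other horse serum libraries and 20694 to 26738 CPM with STEM. It also had the highest sum of 8 markers of dividing myoblasts (1028 CPM, against 648.9 to 958.7 CPM in the other 5 and 495.5 to 586.3 CPM with STEM). At an adjusted p-value no higher than 0.05, 1 of the 13 myotube markers was higher with STEM and 2 were lower. Among the 8 myoblast markers 0 were higher and 6 lower. Over all genes tested 18.9% were called as higher and 17.4% as lower, so the myotube markers were not called more often than genes at large. Of 7 smooth muscle markers, 6 were tested, of which 4 were higher and 1 was lower, with a sum of 2244 to 2699 CPM with horse serum and 2837 to 3355 CPM with STEM. Myh11, the myosin that defines that cell type, did not exceed 12 counts. Fibroblast markers summed to 118.1 to 154.7 CPM with horse serum and 85.3 to 96.5 CPM with STEM (1 higher and 2 lower of 5 tested), and Lum, Thy1 and Tcf21 were at 3 counts or fewer in every library. Endothelial markers (2.16 to 3.69 CPM and 2.37 to 3.03 CPM) and macrophage markers (3.13 to 5.55 CPM and 4.71 to 6.00 CPM) were close to absent, with 0 of 1 tested gene called in each list and with Pecam1, Kdr, Ptprc and Adgre1 among those at 3 counts or fewer. The part of these shifts in the results that follow was not tested, and fewer cells of a type cannot be told from less RNA per cell in such samples.

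Most of the fibronectin and elastic fibre genes were higher with STEM. Of the 10 genes, 8 passed the filter on low counts, and 7 of these were differentially expressed at an adjusted p-value no higher than 0.05 (edgeR's quasi-likelihood test, adjusted over the 14175 genes tested). Fn1, Fbn1, Efemp2, Fbln2, Fbln5 and Mfap5 rose, Fbln1 fell, and Mfap2 did not pass the test. Of all genes tested, 36.4% were called, 18.9% as higher and 17.4% as lower. Over the 8 tested members the median log2 fold change was 0.36, beside 0.01 over the whole set. Horse serum and STEM libraries were fully separated for Efemp2 and Fbln1, 2 of the 8, against 17.2% of all tested genes. Leaving out horse serum 6, an alternative chosen after the values were seen, the groups did not overlap for 5 of the 8 (Fbn1, Fbln5 and Mfap5 besides), against 33.4% of all tested genes, and leaving out STEM 10 they did not for 4 of the 8, against 18.7%. Without horse serum 6, 7 members were called, 6 higher and 1 lower, where the share called among all 14267 genes tested in that fit was 50.8%, 26.3% as higher and 24.5% as lower.

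**Figure D1:**
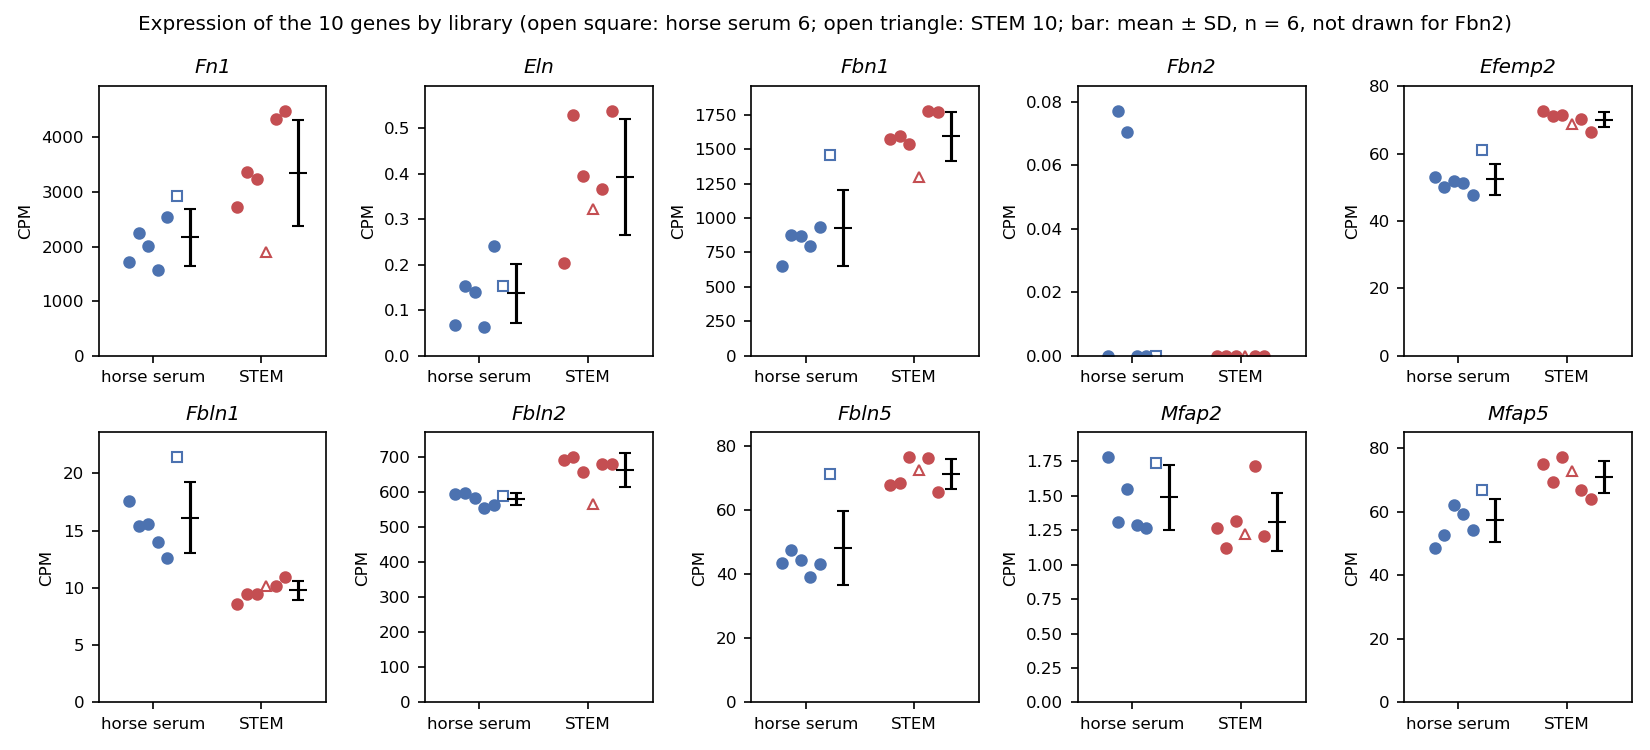
Expression of each of the 10 genes in CPM (vertical axis, starting at 0) in the 6 horse serum (blue) and 6 STEM (red) libraries, with the mean and SD beside the points except for Fbn2, and with horse serum 6 as an open square and STEM 10 as an open triangle. In horse serum 6, Fbn1 (1454 CPM) and Fbln5 (71.4 CPM) sit among the STEM libraries, and in STEM 10 Fn1 (1907 CPM) sits among the horse serum libraries.

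Fn1 (ENSMUSG00000026193, chromosome 1, 71585520 to 71653200 on the minus strand of GRCm38), the fibronectin gene, was measured at 1566 to 2934 CPM with horse serum, with a median of 2121 CPM, and at 1907 to 4488 CPM with STEM, with a median of 3303 CPM. The groups overlapped at both ends: horse serum 6 (2934 CPM) and horse serum 5 (2544 CPM) were the highest controls, and STEM 10 (1907 CPM) lay below 4 of the 6 controls. Means were 2166 ± 516.3 CPM for the control and 3343 ± 974.3 CPM for STEM (SD, n = 6 each), giving a log2 fold change of 0.63 (standard error, SE, 0.21, edgeR adjusted p = 0.035). The exact permutation test of log2 CPM gave p = 0.0303 (two-sided), and 4 of 6 STEM libraries exceeded the highest control. This call was the least stable of the 7. It was lost without the filter on low counts (adjusted p = 0.102) and when any of horse serum 1, 2, 3 or 4 or STEM 8, 9, 11 or 12 was left out (edgeR, adjusted p between 0.0517 and 0.0781), while the log2 fold change stayed between 0.52 and 0.75. Without horse serum 6 it was 0.73 (adjusted p = 0.0242 in edgeR) and without STEM 10 it was 0.75 (adjusted p = 0.00648 in edgeR). Fn1 alone took 0.152% to 0.314% of all counts with horse serum and 0.192% to 0.447% with STEM, which was 47.7% to 62.8% of the counts on the 10 genes. Counts per gene do not separate the splice forms of fibronectin. The antisense gene Apol7d shares 292 exonic bases with Fn1 and had 20 to 42 counts per library.

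Fbn1 (ENSMUSG00000027204, chromosome 2, 125300594 to 125507993 on the minus strand) encodes fibrillin-1, the main subunit of microfibrils after birth. It ranged from 649.2 to 1454 CPM with horse serum (median 870.6) and from 1295 to 1779 CPM with STEM (median 1586). The only overlap was between horse serum 6, at 1454 CPM, and STEM 10, at 1295 CPM, and the other horse serum libraries did not exceed 935.4 CPM. The log2 fold change was 0.78 (SE 0.16, edgeR adjusted p = 0.00203), the largest rise among the called members, and 0.95 without horse serum 6 (adjusted p = 7.23e-06 in edgeR). On the opposite strand Gm9913 shares 2442 exonic bases with Fbn1, and since the strand setting of the counting is not given in the sources used here, reads of the pair could not be assigned with certainty. Gm9913 itself had at most 6 counts in any library.

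Fbn2 (ENSMUSG00000024598, chromosome 18, 58008623 to 58210487), which encodes fibrillin-2, the fibrillin of fetal tissue, had 0 or 1 count in each horse serum library and 0 in each STEM library. A count of 0 allows up to 0.122 to 0.201 CPM in the STEM libraries (3 counts, counting error only). No difference was detectable at this depth, and no fold is given.

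Eln (ENSMUSG00000029675, chromosome 5, 134702593 to 134747323), the gene of the elastin monomer itself, was close to the limit of detection. It had 1 to 4 counts in the horse serum libraries (0.064 to 0.242 CPM) and 5 to 9 counts in the STEM libraries (0.204 to 0.539 CPM). Every STEM library had more counts than every horse serum library, while in CPM the deepest library, STEM 7, fell below horse serum 5. Summed over libraries there were 13 counts of 93855567 with horse serum and 39 of 102860306 with STEM, a ratio of 2.74 with an exact 95% interval of 1.43 to 5.59 that covers counting error only. The exact permutation test of the CPM gave p = 0.00433 (two-sided, n = 6 each). Eln did not pass the filter on low counts. With no filter its log2 fold change was 1.41 (SE 0.48, edgeR adjusted p = 0.0363), and DESeq2 gave 1.47 (adjusted p = 0.0326). Messenger RNA of the fibrillin scaffold was abundant and that of elastin was scarce in either medium: per kilobase of exon the mean of Fbn1 was 76.6 CPM in the controls and 131.4 CPM with STEM, and that of Eln 0.017 and 0.049 CPM.

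**Figure D2:**
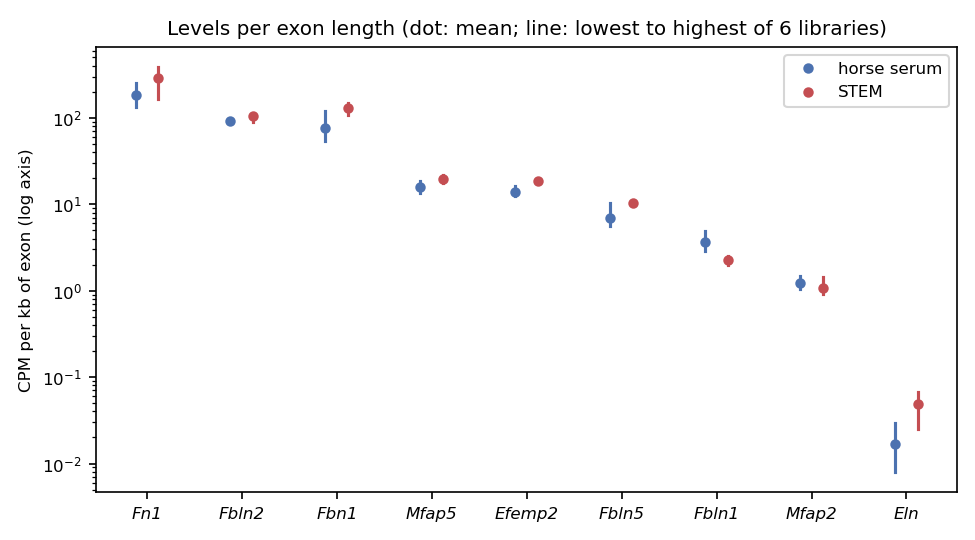
Level of 9 genes in CPM per kilobase of exon (log axis), with the mean as a dot and the lowest to highest of 6 libraries as a line, for horse serum (blue) and STEM (red). Fn1 lies highest at 185.4 and 286.1 CPM per kb, and Eln lies lowest, below Mfap2 at 1.23 and 1.08 CPM per kb.

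Efemp2 (ENSMUSG00000024909, chromosome 19, 5473954 to 5482517 on the plus strand) encodes fibulin-4, which brings lysyl oxidase to elastin and without which elastic fibres do not form. It was measured at 47.7 to 61.0 CPM with horse serum (median 51.5) and at 66.3 to 72.8 CPM with STEM (median 70.7). All 6 STEM libraries lay above all horse serum libraries, and horse serum 6 was the highest of the controls. Its log2 fold change was 0.42 (SE 0.056, edgeR adjusted p = 4.75e-05) and the exact permutation test gave the smallest p-value that 6 libraries against 6 allow (p = 0.00216, two-sided). This was the lowest adjusted p-value of the 8 genes, and with it the tightest spread in the STEM group (coefficient of variation 3.24%). Mus81 shares 173 exonic bases with Efemp2 on the opposite strand, and its counts were 49.4% of those of Efemp2, with a log2 fold change of 0.0018 (adjusted p = 0.985 in edgeR).

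Fbln5 (ENSMUSG00000021186, chromosome 12, 101746565 to 101819055 on the minus strand) encodes fibulin-5, which binds both elastin and cell surface integrins. The horse serum libraries 1 to 5 lay between 39.2 and 47.6 CPM, horse serum 6 at 71.4 CPM, and the STEM libraries between 65.7 and 76.6 CPM with a median of 70.4. Horse serum 6 was thus above 3 of the 6 STEM libraries, and the other controls were below all of them. The log2 fold change was 0.56 (SE 0.12, edgeR adjusted p = 0.00265) with all libraries and 0.71 without horse serum 6 (adjusted p = 6.74e-09 in edgeR).

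Fbln1 (ENSMUSG00000006369, chromosome 15, 85205949 to 85286535 on the plus strand) was the member that fell. It encodes fibulin-1, which binds fibronectin and is found with elastic fibres and in basement membranes. With horse serum it was at 12.6 to 21.4 CPM (median 15.5) and with STEM at 8.56 to 10.98 CPM (median 9.81), and no STEM library reached the lowest control. Its log2 fold change was -0.72 (SE 0.11, edgeR adjusted p = 0.000209, exact permutation p = 0.00216, two-sided). Horse serum 6 had the highest value of this gene, and without it the log2 fold change was -0.62 (adjusted p = 1.23e-05 in edgeR). For Fbn1, Fbln5 and Efemp2 the high value in horse serum 6 lay toward the STEM libraries, whereas for Fbln1 it lay away from them.

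Fbln2 (ENSMUSG00000064080, chromosome 6, 91212455 to 91272540), the gene of fibulin-2, was the most abundant fibulin and changed least among the called members. It ranged from 553.4 to 596.3 CPM with horse serum (median 585.9), the narrowest relative spread of that group (coefficient of variation 2.97%), and from 566.0 to 699.3 CPM with STEM (median 678.5). STEM 10, at 566.0 CPM, lay within the controls and the other STEM libraries lay above them. The log2 fold change was 0.19 (SE 0.053, edgeR adjusted p = 0.011) and 0.23 without STEM 10.

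**Figure D3:**
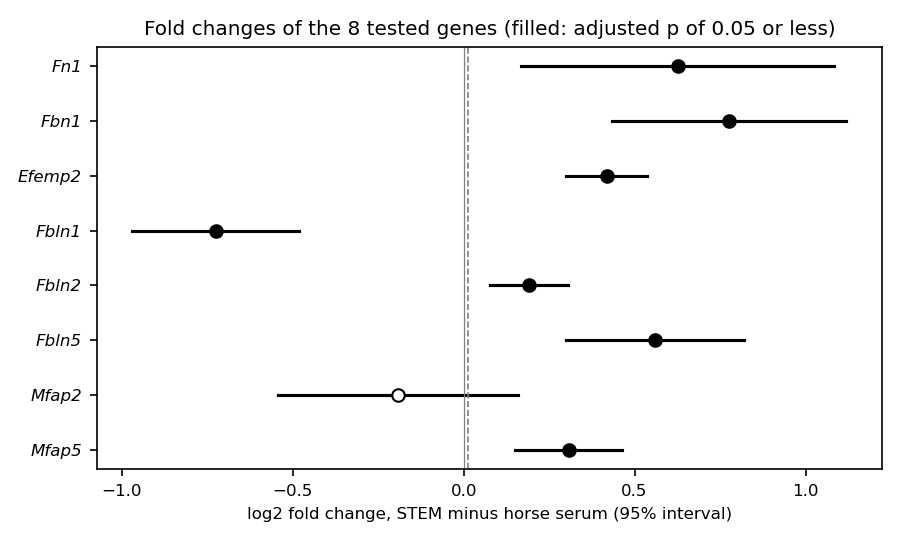
Log2 fold change of STEM against horse serum with its 95% interval for the 8 tested genes, with filled dots for an adjusted p-value no higher than 0.05 and a dashed line at the median of all tested genes (0.01). The interval of Fn1 reaches from 0.17 to 1.08, that of Efemp2 from 0.30 to 0.54, and that of Fbln1 lies below 0, from -0.97 to -0.48.

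The promoters are shown for the genes with fully separated libraries, Efemp2 which rose and Fbln1 which fell, and for Fbln5 as a second fibulin of elastin that rose. RefSeq windows (GRCm38.p6) were matched for 6 of the members, Fbn1, Efemp2, Fbln1, Fbln2, Fbln5 and Mfap2. The table held 3 windows for Efemp2 and 2 each for Fbln1, Fbln5 and Mfap2, of which the one closest to the gene's start in GENCODE was taken, and the others entered only the shares over all windows. The RefSeq start lay 1555 bases from that start for Fbn1, 309 for Fbln2 and 0 to 64 for the other 4 genes. The 250 bases before the RefSeq start of transcription are printed 5′ to 3′ along the gene, and capitals mark matches to the motifs described after them.
Efemp2, chr19:5473696-5473945, plus strand: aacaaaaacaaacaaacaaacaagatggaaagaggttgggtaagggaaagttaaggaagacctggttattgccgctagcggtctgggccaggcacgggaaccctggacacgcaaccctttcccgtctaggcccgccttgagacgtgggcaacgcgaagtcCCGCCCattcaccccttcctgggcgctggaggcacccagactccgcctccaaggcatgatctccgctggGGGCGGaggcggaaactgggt
Fbln5, chr12:101819120-101819369, minus strand: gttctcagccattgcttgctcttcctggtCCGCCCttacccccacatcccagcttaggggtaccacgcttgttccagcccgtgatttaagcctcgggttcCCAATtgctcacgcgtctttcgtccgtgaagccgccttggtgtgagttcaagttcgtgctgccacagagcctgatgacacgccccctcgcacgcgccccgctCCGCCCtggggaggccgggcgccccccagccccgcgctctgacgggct
Fbln1, chr15:85205699-85205948, plus strand: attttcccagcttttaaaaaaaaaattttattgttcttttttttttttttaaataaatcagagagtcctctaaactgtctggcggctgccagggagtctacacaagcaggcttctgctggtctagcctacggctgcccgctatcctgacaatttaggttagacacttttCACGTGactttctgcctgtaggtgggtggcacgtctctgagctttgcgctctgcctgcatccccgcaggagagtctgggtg

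The following short motifs were searched on both strands: the TATA box (TATAAA), the GC box (GGGCGG), the CCAAT box (CCAAT), the AP-1 site (TGANTCA), the E-box (CACGTG) and the cyclic AMP element (TGACGTCA). The GC box, a binding motif of the Sp1 family, had 2 matches in the Efemp2 window and 2 in the Fbln5 window, 1 in the windows of Fbn1 and Fbln2 each, and 0 in those of Fbln1 and Mfap2, and it is found in 32.7% of the 32851 promoter windows of the same length. The Fbln1 window held 1 match to CACGTG, which 6.02% of all windows hold. Other forms of the E-box were not searched. A CCAAT box stood once in the windows of Fbln5 and Mfap2 (33.8% of all windows). The remaining 3 motifs had no match in these 6 windows. The share of G and C was 59.2% for Efemp2, 65.2% for Fbln5 and 46.4% for Fbln1, beside a median of 52.4% over all windows. These matches are a description of the letters, and binding was not measured.

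Mfap5 (ENSMUSG00000030116, chromosome 6, 122505845 to 122529290) and Mfap2 (ENSMUSG00000060572, chromosome 4, 141010418 to 141015984) encode the paired microfibril-associated glycoproteins MAGP-2 and MAGP-1. Mfap5 ranged from 48.6 to 66.8 CPM with horse serum (median 56.7) and from 64.0 to 77.2 CPM with STEM (median 71.2). Again horse serum 6 was the highest control, above STEM 12 alone. The log2 fold change of Mfap5 was 0.31 (SE 0.074, edgeR adjusted p = 0.00439), and 0.36 without horse serum 6. Mfap2 was low, with 17 to 34 counts in any library, at 1.27 to 1.78 CPM with horse serum and 1.12 to 1.71 CPM with STEM. Its log2 fold change was -0.19 with an interval of -0.54 to 0.16 (adjusted p = 0.386 in edgeR), and at this depth a change of that size could not be told from none.

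Ratios within a library, which do not depend on the scaling between libraries, show where members changed unequally. The log2 ratio of Fbln2 to Fbln1 counts rose from 5.19 ± 0.239 with horse serum to 6.07 ± 0.188 with STEM (SD, n = 6 each), a difference of 0.89, and the STEM values (5.80 to 6.33) all exceeded the controls (4.78 to 5.48). The exact permutation test gave p = 0.00216 (two-sided, adjusted p = 0.00649 over 3 ratios). The log2 ratio of Mfap2 to Mfap5 differed by -0.50 between STEM and horse serum, from -5.24 ± 0.259 to -5.74 ± 0.246 (exact permutation p = 0.0108, adjusted p = 0.0162). The ratio of Efemp2 to Fbln5, the fibulins that act on elastin, differed by -0.17 with overlapping groups (exact permutation p = 0.11, adjusted p = 0.11), and by -0.24 without horse serum 6 (adjusted p = 0.013, exact permutation test). The ratios of Fbn1 to Fbn2 and of Eln to Fn1 were not tested, since Fbn2 and Eln had a median of under 10 counts.

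Compared per kilobase of exon, the order of the mean levels with horse serum was Fn1 (185.4 ± 44.2 CPM per kb), Fbln2 (91.0 ± 2.7), Fbn1 (76.6 ± 22.7), Mfap5 (16.0 ± 1.86), Efemp2 (13.8 ± 1.21), Fbln5 (6.98 ± 1.69), Fbln1 (3.69 ± 0.71), Mfap2 (1.23 ± 0.19), Eln and Fbn2. The ranges of the neighbours Fbln2 and Fbn1 overlapped, as did those of Mfap5 and Efemp2. With STEM the order was the same but for Fbn1 (131.4 ± 14.7) and Fbln2 (103.9 ± 7.71). Fbn1 lay above Fbln2 in each of the 6 STEM libraries and below it in 5 of the 6 horse serum libraries. By this level Fn1 stood at rank 251 of 14164 tested genes with a known exon length in the horse serum group and at rank 139 in the STEM group.

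The gene most like Fn1 across the 12 libraries was Col1a1, which encodes a chain of type I collagen. Likeness was measured as the root mean square difference of log2 CPM after each gene was centred on its own mean, over the protein-coding genes tested. It was 0.076 for Col1a1, 0.10 for Runx2, a transcription factor of bone, and 0.11 for Ripor1, where the spread of Fn1 about its own mean was 0.48. Col1a1 was at 289.9 to 481.5 CPM with horse serum and 338.8 to 796.4 CPM with STEM. As for Fn1, horse serum 6 held the highest control value of each of the 3 genes and STEM 10 the lowest STEM value of each. Since the 3 genes were picked for likeness to Fn1 over these same libraries, this and the similar fold changes follow from the choice. The log2 fold changes were 0.71 for Col1a1 (adjusted p = 0.0161), 0.51 for Runx2 (adjusted p = 0.0873) and 0.67 for Ripor1 (adjusted p = 0.0109), all from the edgeR fit.

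**Figure D4:**
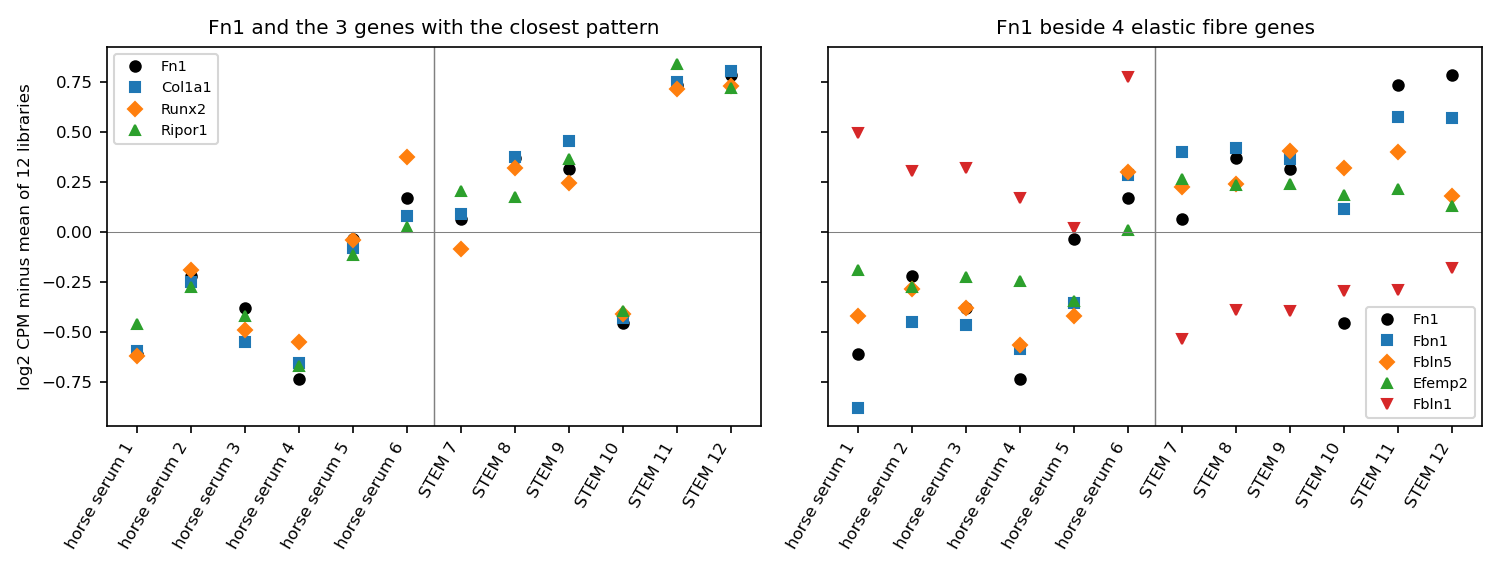
Log2 CPM of each gene minus its mean over the 12 libraries (vertical axis) in every library, for Fn1 with the genes closest to it (left) and for Fn1 beside 4 elastic fibre genes (right), with a line between the groups. On the left the points of the 4 genes lie close together, low in STEM 10, as the genes beside Fn1 were picked for this likeness. On the right Fbln1 lies above 0 in the 6 controls, highest in horse serum 6, and below 0 in the 6 STEM libraries.

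Other genes of elastic fibres and microfibrils were examined as a list of 28 partners, of which 26 were tested. Of these 11 were higher and 5 lower with STEM, and 10 did not pass the test, with a median log2 fold change of 0.25. Of all tested genes 18.9% were called as higher and 17.4% as lower, so the 5 lower partners are near the share of all genes. Without horse serum 6 there were 11 higher and 5 lower as well, in a fit that called 26.3% of all genes as higher and 24.5% as lower. The 5 lower partners became 3 without any one of horse serum 2, STEM 8, STEM 10 or STEM 11. The lowest p-values among the rises were those of Loxl4 and Loxl1, enzymes of the lysyl oxidase family that crosslink collagen and elastin, of Emilin1, a glycoprotein at the interface of elastin and microfibrils, and of Adamtsl5, which binds fibrillin. Loxl4 rose from 24.4 to 26.5 CPM with horse serum to 37.8 to 45.3 CPM with STEM, without overlap (log2 fold change 0.73, SE 0.054, edgeR adjusted p = 2.33e-07). Emilin1 was at 18.0 to 23.0 CPM with horse serum and 29.7 to 35.7 CPM with STEM (log2 fold change 0.73, adjusted p = 2.55e-06 in edgeR). The log2 fold changes of Adamtsl5 and Loxl1 were 0.48 and 0.35 (adjusted p = 1.37e-05 and 4.03e-05 in edgeR). Outside that choice, picked after the values were seen, Mfap4, a further microfibril-associated protein that binds elastin, had the largest log2 fold change of the list, 1.81 (standard error 0.29), on 1 to 40 counts per library.

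The partners that fell include the fibulins Fbln7 and Efemp1, but the fibulins of the list did not move one way. Hmcn2, listed with them, was higher with STEM (log2 fold change 0.81, adjusted p = 0.00114 in edgeR). Hmcn1 had a log2 fold change of 0.44 and was not called (adjusted p = 0.213 in edgeR). Fbln7 was at 2.47 to 4.00 CPM with horse serum and 1.08 to 2.00 CPM with STEM (log2 fold change -1.09, SE 0.18, edgeR adjusted p = 0.000279). Efemp1, the gene of fibulin-3, was at 0.51 to 1.44 CPM and 0.27 to 0.65 CPM, on 4 to 21 counts per library (log2 fold change -0.96, adjusted p = 0.0142 in edgeR). Loxl2 and Loxl3 fell as well (log2 fold change -0.62 and -0.15, adjusted p = 0.0167 and 0.0406 in edgeR), so the lysyl oxidases did not move one way, and Lox, the founding member of that family, had a log2 fold change of -0.19 and was not called (adjusted p = 0.228 in edgeR). In horse serum 6, Loxl2 was at 19.5 CPM, within the STEM range of 14.6 to 28.6 CPM.

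**Figure D5:**
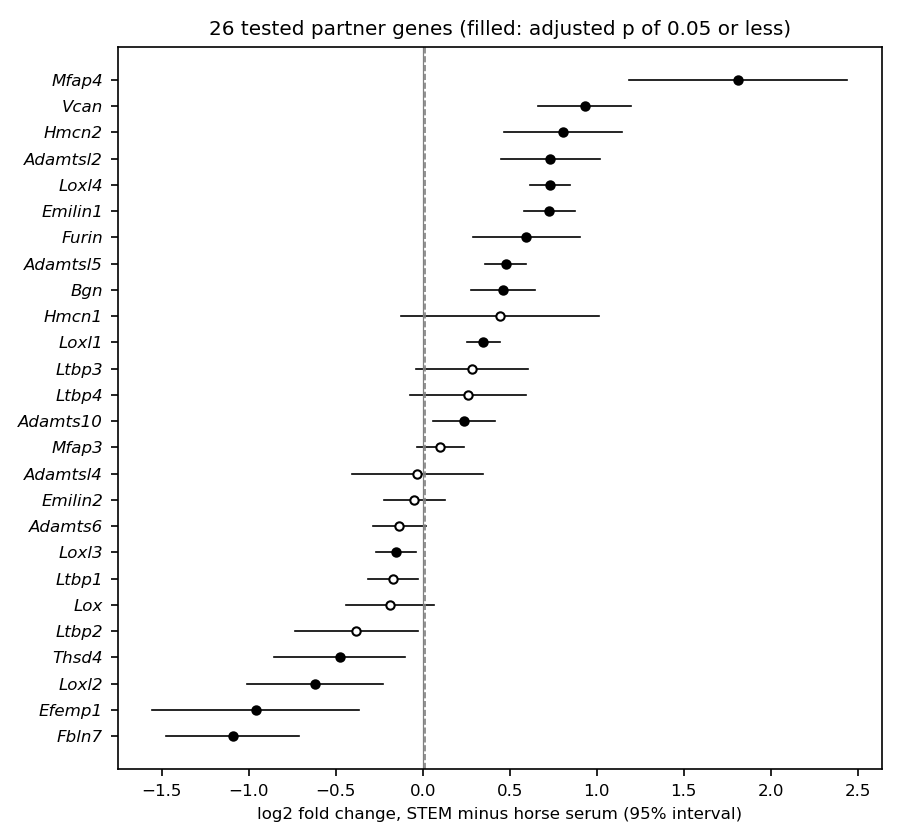
Log2 fold change of STEM against horse serum with its 95% interval for the 26 tested partner genes in order of size, with filled dots for an adjusted p-value no higher than 0.05 and a dashed line at the median of all tested genes (0.01). Filled dots stand on both sides of 0, 11 to the right and 5 to the left, from Mfap4 at 1.81 to Fbln7 at -1.09.

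Receptors and assembly factors of fibronectin were called at a share near that of all genes. Of 16 listed genes 13 were tested, and 3 were higher, 3 lower and 7 not called, with a median log2 fold change of 0.09, beside 36.4% called over all tested genes. Without horse serum 6, 4 were higher and 3 lower of 14 tested, beside 50.8% called over all genes. Sdc2, a syndecan heparan sulfate proteoglycan, rose from 581.6 ± 41.6 to 725.8 ± 24.0 CPM (SD, n = 6 each), without overlap (log2 fold change 0.32, adjusted p = 0.000249 in edgeR). Tgm2, a transglutaminase that crosslinks fibronectin and acts as its co-receptor, had a log2 fold change of 0.38 (adjusted p = 0.00199), and Itgb6 of 0.43 (adjusted p = 0.021), in the same edgeR fit. Sdc4, the syndecan of focal adhesions, went the other way, from 135.4 to 261.1 CPM (median 243.0) with horse serum to 100.4 to 155.8 CPM (median 116.7) with STEM (log2 fold change -0.89, SE 0.16, edgeR adjusted p = 0.00117). Horse serum 6 was the lowest control of Sdc4, at 135.4 CPM, and overlapped the STEM libraries. Itgb1, the beta chain of the main fibronectin receptor, fell by 0.17 on the log2 scale (adjusted p = 0.0247 in edgeR) and Ilk, an adaptor bound to it, fell by 0.16 (adjusted p = 0.0163 in edgeR). The alpha chain of that receptor, Itga5, had a log2 fold change of 0.09 and was not called (adjusted p = 0.396 in edgeR).

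Of 11 proteases that cut elastin or fibronectin, 3 were tested, and 6 (Mmp3, Mmp7, Mmp12, Ctss, Elane and Plg) were at 3 counts or fewer in every library. Cathepsin L (Ctsl) was at 803.5 to 899.5 CPM with horse serum and 563.3 to 777.3 CPM with STEM (log2 fold change -0.41, SE 0.074, edgeR adjusted p = 0.000619). The gelatinase gene Mmp2 had a log2 fold change of -0.18 (adjusted p = 0.00614 in edgeR), without overlap between the groups in either gene. Mmp14, which activates Mmp2 at the cell surface, was at 258.6 to 289.2 CPM with STEM and 170.5 to 364.4 CPM with horse serum, where the highest value was that of horse serum 6 (log2 fold change 0.27, adjusted p = 0.184 in edgeR). Without horse serum 6 all 3 tested proteases were called, 1 higher and 2 lower, where 50.8% of all genes were called, against 36.4% with every library.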

How the data were processed

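RNA of C2C12 myotubes (12 libraries, 6 with 4% horse serum, 6 with 4% STEM) was depleted of ribosomal RNA and made into stranded libraries. The deposited values are raw read counts per Ensembl gene for build GRCm38, without normalization. The submitters' processing notes name STAR 2.7.3a, featureCounts 1.6.3 and DESeq2 1.26.0, and the annotation release and strand setting are not given in the sources used here. Counts were tested with edgeR 4.0.16 in R 4.3.3 (TMM normalization, filterByExpr, robust glmQLFit, glmQLFTest) over 14175 genes with Benjamini-Hochberg adjustment. Calls required an adjusted p-value no higher than 0.05. CPM are relative to TMM-normalized totals, log2 CPM used a prior count of 2, and ratios had 0.5 added to each count. Symbols, positions and exon lengths came from GENCODE M21 (GRCm38), which held 55227 of the 55487 genes. Libraries within a group differed beyond sampling noise (chi-square per degree of freedom 3.54 to 76.6 over 30 pairs). The script was tested on simulated data with known changes.

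The members and gene lists were chosen with earlier results of these data known. Named were all members, the 4 genes per direction with the lowest p-values among called partners and receptors, 2 per direction among called proteases, the 3 genes closest to Fn1 (Eln was not tested and had none), and cell markers that were highest or near 0. Further myoblast and fibroblast markers were named after the values were seen. Alternatives were other scalings, filters, DESeq2 1.42.0, limma-voom (limma 3.58.1), thinning to 13285472 counts, a threshold of 0.01 and leaving out each library.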

Additional observations from a re-analysis of the deposited data

Results flagged for a closer look

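Each group of 6 libraries was checked for a library far from the rest (the gap to its nearest neighbour against the whole range, on the log2 scale), for the tested members, the ratios and the named partner genes. Of 54 groups 12 were picked out. For a single group chance alone gives about 1 in 20. The groups share the same libraries and are not independent, so the count of 12 cannot be judged by that rate. Horse serum 6 accounted for 9 of the 12. It lay above the other 5 controls for Fbln5 (71.4 CPM against 39.2 to 47.6), Emilin1 (23.0 CPM against 18.0 to 19.1), Loxl3 (100.4 CPM against 80.9 to 82.6) and Mmp2 (375.5 CPM against 324.2 to 336.9). It lay below them for Loxl2 (19.5 CPM against 33.7 to 39.0), Tgm2 (111.6 CPM against 146.7 to 170.0), Itgb6 (24.4 CPM against 37.7 to 45.5), Sdc4 (135.4 CPM against 232.4 to 261.1) and Itgb1 (1107 CPM against 1250 to 1335). The other 3 were Fbln2 in STEM 10 (566.0 CPM against 655.9 to 699.3), and the log2 ratio of Mfap2 to Mfap5 in horse serum 1 (-4.74 against -5.49 to -5.24) and in STEM 11 (-5.26 against -5.92 to -5.68).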

How the results depend on the processing

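No paired analysis was possible because the groups share no replicate numbers. The direction of all 8 tested members was kept under each of 20 alternatives. The calls of Fbn1, Efemp2, Fbln1, Fbln2, Fbln5 and Mfap5 and the lack of one for Mfap2 were also kept, while that of Fn1 was lost in 9 of 20 (adjusted p from 0.00648 to 0.102), of which 8 tested with 1 library fewer. The number of called members was 5 to 8 over 21 alternatives, 5 at a threshold of 0.01, 8 with DESeq2, which called Eln, and 7 without the filter on low counts, where Eln was called and Fn1 was not. Fully separated groups were found for 2 to 5 tested members with each library left out in turn, 5 without horse serum 6, 4 without STEM 10 and 3 without STEM 12. At 0.01 the calls over all genes went from 5155 to 3266, and those among fibronectin receptors from 6 to 3. With each library left out in turn, 4459 to 7245 genes, 6 to 7 members, 13 to 16 partners, 5 to 7 receptors and 2 to 3 proteases were called. The partners lower with STEM went from 5 to 3 without horse serum 2, STEM 8, STEM 10 or STEM 11 and with scaling by total counts, and to 1 at a threshold of 0.01, where 10 were higher. Over the same fits the difference in log2 ratio was 0.81 to 0.95 for Fbln2 to Fbln1, -0.59 to -0.40 for Mfap2 to Mfap5, and -0.24 to -0.12 for Efemp2 to Fbln5, which passed only without horse serum 6. Other scalings moved the median of all tested genes to between -0.01 and 0.03. The ratios of Fbn1 to Fbn2 and of Eln to Fn1 were not run. Depth limits Eln, Fbn2 and Mfap2.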
